A study of Homo sapiens with 5 samples.

Results

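The genes described here are 9 that build, load or switch on major histocompatibility complex (MHC) class I molecules: the heavy chain genes HLA-B, HLA-C, HLA-E and HLA-F, the light chain gene B2M, the peptide transporter genes TAP1 and TAP2, the tapasin gene TAPBP and the transcriptional activator gene NLRC5. They were taken by name, as all probes that the platform annotation assigns to one of these symbols. That gave 15 of the 47231 probes of the array. A probe was kept where its detection p-value was under 0.05 on at least 2 independent arrays, which held for 14 probes and left every one of the 9 genes with at least 1 probe, among 12080 genes with a kept probe.

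The cells were MDA-MB-231, an established human breast cancer line without estrogen receptor. They had been exposed to 10 µM fluvastatin for 24 h, or to sterile water for 24 h as a mock control. Fluvastatin is a statin, an inhibitor of the enzyme that makes mevalonate. RNA was labelled as biotinylated cRNA and read on Illumina bead arrays. The 2 fluvastatin arrays (replicates 1 and 2) were compared with 2 control arrays (replicates 1 and 3). Control replicate 2 was left out because its intensity equalled the mean of the other controls, to within 1e-06, in 47231 of 47231 probes. Nothing in the labels says that replicates came from separate cultures, so a p-value here reflects no more than the spread among these arrays, which may be technical.

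MHC class I molecules sit on nearly all nucleated cells and show peptides from inside the cell to CD8 T cells. A heavy chain folds with beta-2-microglobulin in the endoplasmic reticulum. TAP1 and TAP2 form a heterodimer that pumps peptides from the cytosol into that compartment, and tapasin holds the empty class I molecule beside the pump until a peptide binds. Interferons raise the whole set, and NLRC5 activates class I promoters together with a complex of RFX and NF-Y proteins bound at conserved boxes. Tumour cells often lower parts of this pathway.

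The arrays were of like depth in detected probes, 46.9% and 44.9% with fluvastatin and 46.1% and 43.0% in controls. Their mean raw intensities were 515 and 493.1 with fluvastatin, against 452.1 and 369.1 in controls, so the values below are log2 intensities after background correction and quantile normalization unless a raw intensity is named. The cell label was checked against marker genes. VIM, CD44, CAV1 and AXL, 4 of 4 markers of basal and mesenchymal cells, were detected on all 4 arrays, and ESR1, PGR and CDH1 on none, while the luminal markers GATA3, KRT8 and KRT18 were detected on all. Of 7 leukocyte markers with a probe, PTPRC, CD3E, CD53 and LCP2 were detected on no array and CORO1A on 1. CD14 and LAPTM5 were detected on all. The raw intensities of the 7 summed to 865.9 and 765.3 with fluvastatin and to 745.1 and 705.6 in controls, and the part of this difference in the results was not tested.

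Class I promoters are known for boxes through which interferon, RFX and NF-Y proteins act, and the windows of 4 members whose change passed the test are shown so that these letters can be seen in genes that rose and in the one that fell. The windows run from 250 bases before to 50 bases after the gene start and come from RefSeq, build GRCh38.p14. Capitals mark the interferon response element (GAAA, any 2 bases, GAAA, or the looser form GAANNGAAA, which was added after the data were seen), the CCAAT box (CCAAT) and the core of the cyclic AMP response element (TGACG), each on either strand. HLA-B lies at chr6:31357130-31357429 on the minus strand, HLA-F at chr6:29723184-29723483 on the plus strand, TAPBP at chr6:33314029-33314328 on the minus strand and TAP2 at chr6:32838690-32838989 on the minus strand. Each is printed 5′ to 3′ along its gene.
HLA-B: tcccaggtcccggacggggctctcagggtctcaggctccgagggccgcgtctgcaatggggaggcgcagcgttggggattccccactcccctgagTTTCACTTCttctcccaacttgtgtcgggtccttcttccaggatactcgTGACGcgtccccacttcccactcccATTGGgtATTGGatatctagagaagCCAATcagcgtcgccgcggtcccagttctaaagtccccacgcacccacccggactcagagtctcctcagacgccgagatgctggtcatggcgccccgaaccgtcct
HLA-F: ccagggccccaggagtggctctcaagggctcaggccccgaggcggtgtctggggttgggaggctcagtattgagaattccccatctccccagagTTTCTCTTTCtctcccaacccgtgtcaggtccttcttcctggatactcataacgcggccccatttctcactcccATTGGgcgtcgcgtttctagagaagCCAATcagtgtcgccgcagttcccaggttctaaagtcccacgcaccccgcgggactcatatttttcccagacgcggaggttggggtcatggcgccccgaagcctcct
TAPBP: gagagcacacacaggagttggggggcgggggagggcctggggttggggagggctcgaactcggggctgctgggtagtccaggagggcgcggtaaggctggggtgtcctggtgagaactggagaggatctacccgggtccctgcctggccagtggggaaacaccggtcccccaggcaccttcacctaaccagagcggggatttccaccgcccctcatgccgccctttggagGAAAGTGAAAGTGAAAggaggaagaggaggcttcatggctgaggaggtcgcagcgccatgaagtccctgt
TAP2: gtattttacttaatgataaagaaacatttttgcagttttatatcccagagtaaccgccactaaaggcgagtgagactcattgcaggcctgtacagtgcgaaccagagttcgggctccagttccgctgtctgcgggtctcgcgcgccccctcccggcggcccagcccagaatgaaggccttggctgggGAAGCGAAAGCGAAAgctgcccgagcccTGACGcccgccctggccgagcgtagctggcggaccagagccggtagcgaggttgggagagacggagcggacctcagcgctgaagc

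Of the 9 members, 5 rose with fluvastatin, 1 fell and 3 did not pass the test (limma, Benjamini-Hochberg adjusted p under 0.05). Over all 12080 genes 10.5% rose and 9.65% fell. HLA-F, HLA-E, NLRC5, TAPBP and HLA-B were the genes that rose, by 1.66-fold to 1.98-fold, and TAP2 fell. By probe, 8 of the 14 kept probes passed, 6 higher and 2 lower, where 16.9% of all 21986 kept probes passed in either direction. The groups did not overlap for 7 members that were higher with fluvastatin and for 1 that was lower, which held for 35.9% and 33.7% of all genes. The median log2 fold change of the 9 was 0.73, beside 0.01 over all genes. The 9 genes were chosen with earlier results of these data known. The shares and medians therefore describe these genes and are no test of the set. In bulk RNA, fewer cells of a kind and less RNA per cell cannot be told apart. The calls needed both controls: without control replicate 1 the members that rose numbered 0 and TAP2 still passed (adjusted p = 0.0449), and without control replicate 3 both counts were 0. At an unadjusted p under 0.05 each of those limma fits still had 5 members higher and 1 lower. Without fluvastatin replicate 1 there were 4 that rose and without replicate 2 there were 7.

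**Figure D1:**
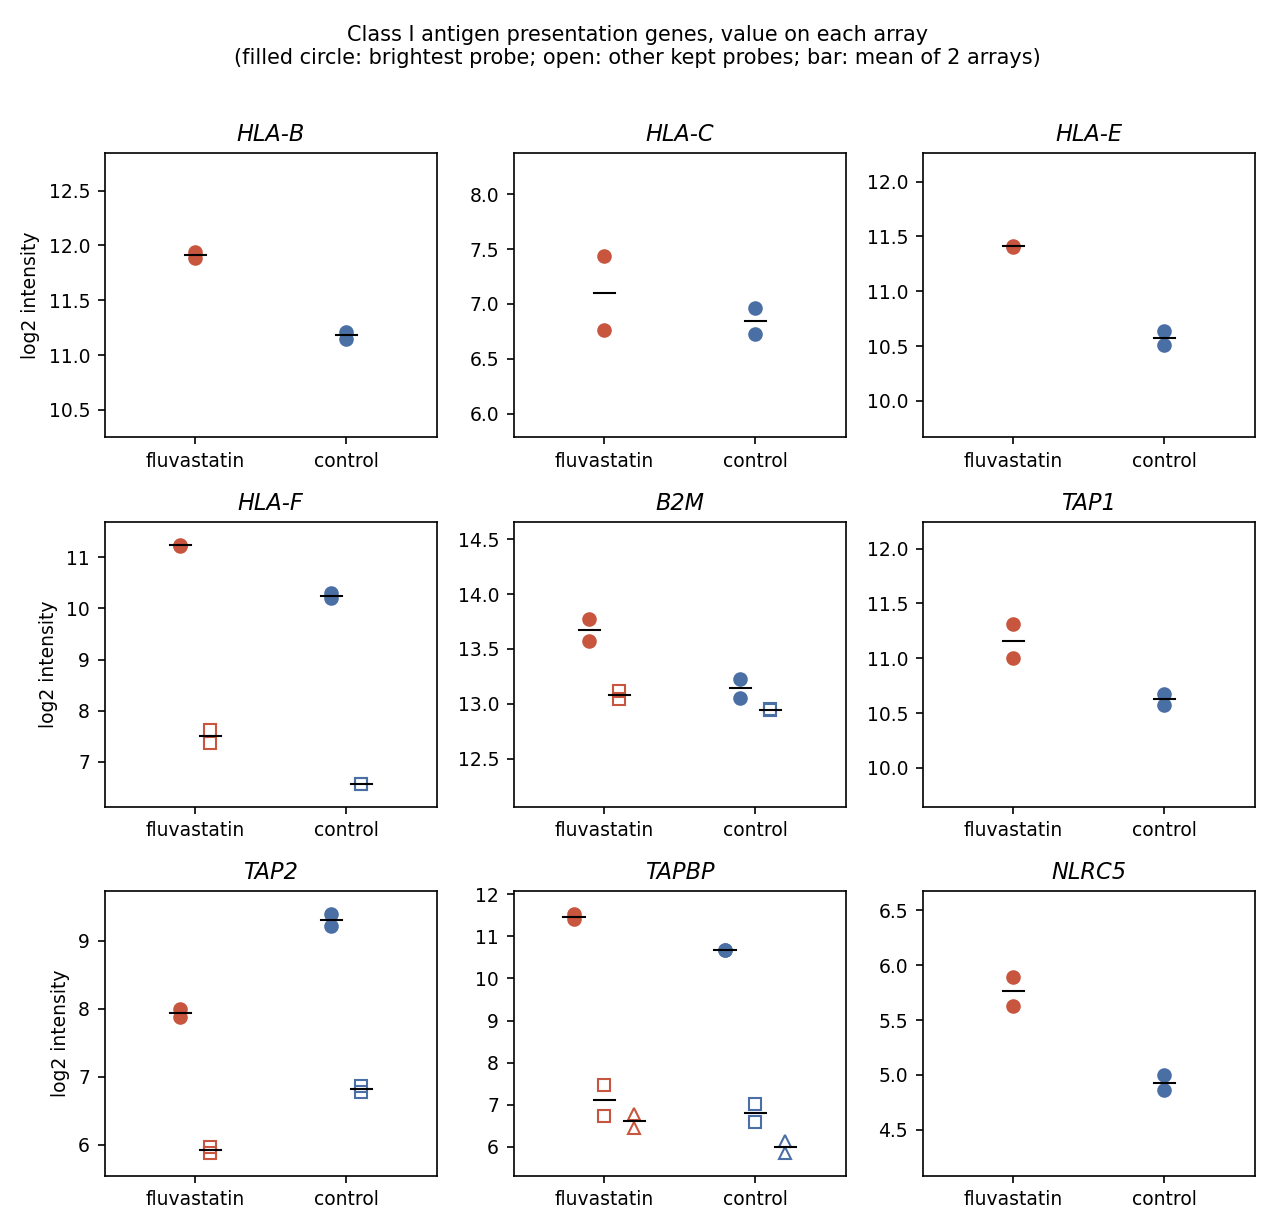
Log2 intensity of each kept probe of the 9 genes on the 2 fluvastatin arrays (red, left) and the 2 control arrays (blue, right) after background correction and quantile normalization. Filled circles are the brightest probe of a gene, open symbols its other kept probes and bars the mean of 2 arrays; every panel has its own vertical scale. TAP2 was lower with fluvastatin in both of its probes, and HLA-C overlapped between groups.

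Among the heavy chains, HLA-B encodes a classical class I molecule that presents peptides to CD8 T cells. Its probe had raw intensities of 4526.9 and 4144.6 on the fluvastatin arrays, against 2354.6 and 1832.4 on the control arrays. After normalization these were 11.94 and 11.89 on the log2 scale with fluvastatin, against 11.15 and 11.21 in controls. Both fluvastatin arrays lay above both controls, at a distance many times the spread within a group. The log2 fold change was 0.73 ± 0.15 (SE, adjusted p = 0.0305), or 1.66-fold, with a 95% interval of 0.36 to 1.11. Leaving out 1 array gave 0.70 to 0.76.

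HLA-E, a non-classical class I molecule that displays leader peptides of other class I chains to natural killer cell receptors, had log2 intensities of 11.41 and 11.40 with fluvastatin and 10.51 and 10.64 in controls. The fluvastatin arrays were nearly equal and both above the controls. HLA-E rose by 0.83 ± 0.15 on the log2 scale (adjusted p = 0.0241), 1.78-fold. Its range on leaving out an array was 0.77 to 0.90.

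HLA-F, another non-classical class I gene, had 2 kept probes, annotated to 2 different transcript records. The brighter probe read 11.23 and 11.24 with fluvastatin, against 10.20 and 10.29 in controls. The dimmer one read 7.62 and 7.38 with fluvastatin, against 6.57 and 6.57 in controls. Neither probe overlapped between groups, and the log2 fold changes were 0.99 ± 0.15 (adjusted p = 0.0165) and 0.93 ± 0.17 (adjusted p = 0.0226). The brighter probe gave the highest rise among the 9 genes, 1.98-fold, and 5.82% of all genes had a higher fold change.

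HLA-C, a classical heavy chain gene whose product is also the main ligand of a family of natural killer cell receptors, was the heavy chain member that did not pass. Its kept probe was dim, with raw intensities of 182.5 and 241.6 with fluvastatin, against 148.9 and 139.5 in controls. The log2 values were 6.77 and 7.43 with fluvastatin and 6.72 and 6.97 in controls, so the groups overlapped. The log2 fold change was 0.25 ± 0.26 (adjusted p = 0.520), with an interval of -0.38 to 0.89. That interval holds both no change and the rise measured for HLA-B. Without fluvastatin replicate 2 the value was -0.08. The second HLA-C probe, at raw intensities of 52.7 and 60.9 with fluvastatin and 55.6 and 58.3 in controls, was detected on no array and was not tested. Class I heavy chain genes are close in sequence, and whether each probe reads 1 gene alone was not tested.

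B2M encodes beta-2-microglobulin, the light chain shared by all class I molecules. Its 2 probes are annotated to 1 transcript record and were both very bright. The brighter one had raw intensities of 15652.7 and 13628.7 with fluvastatin, against 9491.9 and 6722.3 in controls, and log2 values of 13.78 and 13.57 with fluvastatin, against 13.22 and 13.06 in controls. The groups did not overlap, but the log2 fold change of 0.53 ± 0.17 did not pass (adjusted p = 0.0832). The other probe gave 0.14 ± 0.15 (adjusted p = 0.552), with log2 values of 13.05 and 13.12 with fluvastatin and 12.94 and 12.95 in controls. The probes thus gave different sizes, with the same sign, and the mean of the 2 probes gave 0.34 (adjusted p = 0.159). The brighter probe passed in 6 other settings, among them the authors' values (0.57, adjusted p = 0.0246).

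TAP1 and TAP2, the partners in the peptide pump, gave values of opposite sign. TAP1 had raw intensities of 3013.2 and 2248.4 with fluvastatin, against 1718.5 and 1194.5 in controls. Its log2 values were 11.31 and 11 with fluvastatin and 10.68 and 10.57 in controls. The fluvastatin arrays were both above the controls and lay farther apart than the controls did. The fold change of 0.53 ± 0.18 did not pass (adjusted p = 0.0934), with an interval of 0.09 to 0.97. It passed in 6 of 13 other settings, with adjusted p from 0.0203 with all 5 deposited columns to 0.0492 with an offset of 50, and no setting turned its direction.

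TAP2 fell in both of its probes, which are annotated to 2 transcript records. The brighter probe was lower even before normalization, at raw intensities of 362.1 and 305.7 with fluvastatin, against 644.1 and 542.4 in controls. Its log2 values were 8.0 and 7.88 with fluvastatin and 9.21 and 9.39 in controls. Both fluvastatin arrays were more than 1 log2 unit below both controls, and the log2 fold change was -1.36 ± 0.16 (adjusted p = 0.0109), or 2.57-fold lower. The dimmer probe read 5.88 and 5.98 with fluvastatin, against 6.78 and 6.86 in controls, a change of -0.89 ± 0.15 (adjusted p = 0.0212). Its raw intensities were low, 118.1 and 123.9 with fluvastatin, against 152.6 and 133 in controls. Before background correction and normalization its log2 change was -0.24, so the size of its fall depended on the processing. Among all genes, 1.85% had a lower fold change than TAP2. TAP2 passed in 12 of 13 other settings, the mean of its probes included, at values between -1.45 and -1.12, the exception being the fit without control replicate 3 (-1.27, adjusted p = 0.0654).

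The log2 difference between the TAP1 and TAP2 probes on the same array is untouched by any shift of a whole array. The absolute size of this difference has no meaning, since the probes differ, but its change between groups does. It was 3.31 and 3.12 on the fluvastatin arrays, against 1.46 and 1.18 on the control arrays. TAP1 relative to TAP2 was thus higher with fluvastatin by 1.90 on the log2 scale, 3.72-fold, and the arrays of the groups did not overlap. The same difference for TAPBP and TAP2 was 3.41 and 3.66 with fluvastatin and 1.46 and 1.28 in controls. No test was made of these differences.

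TAPBP encodes tapasin, the bridge between the pump and the class I molecule. Its 3 probes are annotated to 3 transcript records. The brightest read 11.41 and 11.54 with fluvastatin, against 10.67 and 10.68 in controls, with raw intensities of 3197.4 and 3252.5 with fluvastatin, against 1704.3 and 1280.5 in controls. The groups lay well apart, and it rose by 0.80 ± 0.15 (adjusted p = 0.0259), 1.74-fold. The dimmer probes gave 0.63 ± 0.20 (adjusted p = 0.0794), with no overlap between groups, and 0.30 ± 0.29 (adjusted p = 0.498), with overlap. With the mean of its probes TAPBP did not pass (0.58, adjusted p = 0.0971).

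NLRC5, the activator of class I promoters, was near background. Its probe had raw intensities of 118.9 and 108.5 with fluvastatin, against 76.6 and 77.0 in controls, where its detection p-values were 0.0481 and 0.0390. The log2 values were 5.89 and 5.63 with fluvastatin and 4.86 and 5.00 in controls. The groups did not overlap, and NLRC5 rose by 0.83 ± 0.17 (adjusted p = 0.0313), 1.78-fold. That size depended on the background handling: it was 0.38 without a correction (adjusted p = 0.0616) and 0.45 with an offset of 50 (adjusted p = 0.0478). The authors' values, whose processing steps are not given, had 0.33 (adjusted p = 0.0787).

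**Figure D2:**
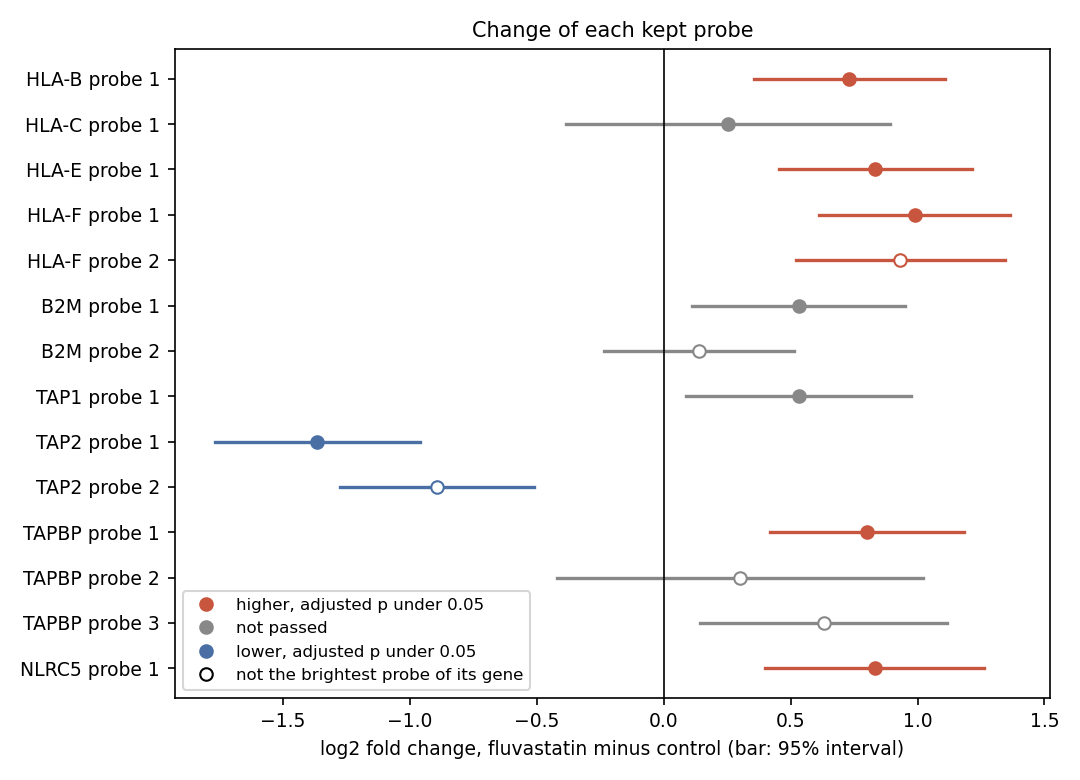
Log2 fold change (fluvastatin minus control, horizontal axis) of each of the 14 kept probes with its 95% interval from limma. Red probes rose and blue probes fell at an adjusted p under 0.05, grey probes did not pass, and open circles are probes that are not the brightest of their gene. The 2 TAP2 probes are the only ones below 0, at -1.36 and -0.89.

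Interferon response element letters were found for genes of both directions. Windows were found for 7 of the 9 members, TAP1 with 2 starts, and HLA-E and NLRC5 had no entry. The element (GAAA, any 2 bases, GAAA) was present for 5 of the 7, namely HLA-F, B2M, TAP1, TAPBP and TAP2, and in 3.57% of all 35116 windows of this length. TAP2, which fell, held it at positions -58 to -49 from the gene start, overlapping a shorter GAANNGAAA at -63 to -55, as the capitals in its sequence show. TAPBP, which rose, held 2 overlapping copies between -20 and -5. HLA-B and HLA-C held the shorter GAANNGAAA without the element itself. GAANNGAAA occurred in 7.66% of all windows, a share that does not include every window with the longer element. A CCAAT box was found for HLA-B, HLA-C, HLA-F, B2M and the TAP1 start that is farther upstream (34.6% of all windows), and none was found for TAP2 or TAPBP. TGACG was found for HLA-B, HLA-C, B2M and TAP2 (24.6%), the kappaB core (GGG, any 5 bases, CC) for 6 of the 7 (58.7%) and the gamma-activated site TTCNNNGAA for TAP1 alone of the 7 (7.66%). These matches are letters in a window, and no binding was measured. The HLA-B window was identical to that of HLA-C at 90.9% of aligned bases and to that of HLA-F at 82.4%, against 58.0% for TAP2.

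**Figure D3:**
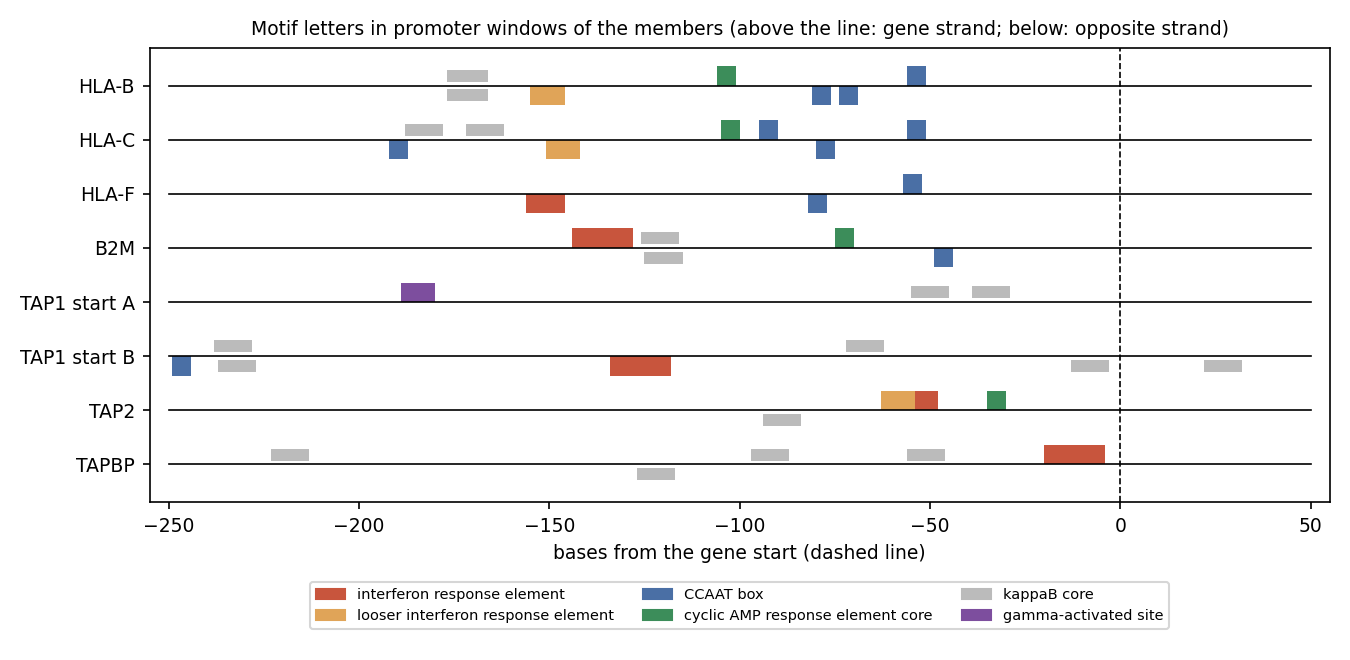
Positions of motif letters in the 8 promoter windows of 7 members, as bases from the gene start (dashed line, horizontal axis), with boxes above each line on the gene strand and below it on the opposite strand. Red boxes (interferon response element) occur for TAP2, which fell, as well as for HLA-F, TAPBP, B2M and TAP1.

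The rest of the pathway was described by 7 lists. Of their 81 genes, 71 had a kept probe, of which 7 rose, 3 fell and 61 did not pass. Of all genes, 10.5% rose and 9.65% fell, so the listed genes that rose were near the background share and those that fell were below it; no test was made of that difference. Their median log2 fold change was 0.17, beside 0.73 for the 9 members. Lists and members alike were chosen with earlier results known, so these values are descriptive.

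Class I-like molecules and further heavy chain loci had 3 of 9 genes higher and 0 lower, with a median of 0.33. MR1, which presents vitamin B metabolites to mucosal-associated invariant T cells, had log2 values of 7.07 and 7.43 with fluvastatin and 5.72 and 5.39 in controls, and rose by 1.69 ± 0.21 (adjusted p = 0.0113). HLA-H, a class I pseudogene, rose by 1.12 ± 0.19 (adjusted p = 0.0204), and its second probe by 0.83 (adjusted p = 0.0298). RAET1G, a ligand of the NKG2D receptor of natural killer cells, rose by 0.91 ± 0.16 (adjusted p = 0.0235), but its other probe gave 0.14 (adjusted p = 0.669). FCGRT, the neonatal Fc receptor that also pairs with B2M, was at 0.88 ± 0.31 and did not pass (adjusted p = 0.102).

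Of 9 measured genes for loading, folding and trimming in the endoplasmic reticulum, 0 passed in limma and 1 was higher at an unadjusted p under 0.05, with a median of 0.21 and a range of -0.40 to 0.54. The disulfide isomerase P4HB was at 0.54 (adjusted p = 0.0783), the trimming peptidase ERAP2 at 0.39, calreticulin (CALR) at 0.28 and the chaperone HSPA5 at 0.23. Of 6 genes of the immunoproteasome and its PA28 activator, 0 passed in limma and 3 were higher at an unadjusted p under 0.05, with a median of 0.36. In the authors' values 3 of the 6 passed. PSMB9 was at 0.63 (adjusted p = 0.0518), PSMB10 at 0.59 (adjusted p = 0.0548), PSME1 at 0.51 (adjusted p = 0.0811) and the assembly factor POMP at -0.46. The dimmer PSMB9 probe gave 0.25 (adjusted p = 0.5965), with overlap between groups, and the dimmer PSME1 probe 0.32 (adjusted p = 0.295). Among 9 cytosolic peptidases and constitutive proteasome subunits, the puromycin-sensitive aminopeptidase NPEPPS rose by 0.75 (adjusted p = 0.0350). Its other probes gave 0.54 and 0.09. The peptidases BLMH (-0.77), THOP1 (-0.72) and LAP3 (-0.60) did not pass (adjusted p = 0.0588 to 0.0731). In limma, 3 genes of this list were lower in the authors' values and 0 with median scaling. With median scaling 0 were lower at an unadjusted p under 0.05 either, so these falls depended on the scaling.

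Of 15 measured factors that act on class I promoters, 1 rose and 2 fell. That balance depended on scaling, since median scaling gave 4 higher and 0 lower, and without either control replicate both limma counts were 0 (at an unadjusted p under 0.05, 2 higher and 1 lower without replicate 1, and 2 higher and 1 lower without replicate 3). RELB, a subunit of NF-kB, rose by 0.72 ± 0.15 (adjusted p = 0.0310). The other NF-kB subunit genes of the list differed in sign and did not pass. NFKB1 was at -0.61 (adjusted p = 0.0640), NFKB2 at 0.58 (adjusted p = 0.120) and RELA at 0.305 (adjusted p = 0.206). RFXAP, a subunit of the RFX complex with which NLRC5 acts, fell by 0.71 on the log2 scale (adjusted p = 0.0338), with 6.67 and 6.63 with fluvastatin and 7.31 and 7.39 in controls. NFYA, a subunit of the CCAAT-binding factor NF-Y, fell by 0.76 (adjusted p = 0.0482). The third RFX subunit gene, RFXANK, was at 0.58 (adjusted p = 0.0614). Its other probes gave 0.43 (adjusted p = 0.122) and 0.12 (adjusted p = 0.654). CIITA, the class II relative of NLRC5, was at 0.71 (adjusted p = 0.0643). That value was near background, with raw intensities of 113.8 and 123.5 with fluvastatin, against 89.1 and 76.4 in controls. CIITA was detected on only 1 of the 2 control arrays. RFX5 (-0.03) and IRF1 (0.04) were close to 0. NFKB1, NFKB2, RELA, CIITA, RFX5 and IRF1 were chosen after their values were seen.

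Among 11 measured interferon receptor and JAK-STAT genes, IRF9 was the gene that passed. It encodes the DNA-binding part of the complex that carries the type I interferon signal to interferon response elements. Its log2 values were 10.30 and 10.28 with fluvastatin, against 8.54 and 8.57 in controls, a rise of 1.74 ± 0.15 (adjusted p = 0.00713). SOCS1 (0.66) and IFNGR1 (0.71) were higher and IFNAR2 (-0.37) lower on both fluvastatin arrays without passing (adjusted p = 0.123 to 0.143). Among 12 genes of surface turnover, the ubiquitin ligase gene MARCHF4 fell and the plasma membrane SNARE gene STX4 rose by 0.91 ± 0.15 (adjusted p = 0.0191). MARCHF4 encodes a membrane protein that lowers surface class I when it is overproduced. It read 5.52 and 6.24 with fluvastatin, against 8.86 and 8.84 in controls, a change of -2.97 ± 0.26 (adjusted p = 0.00713). DERL1 (0.35) and SYVN1 (0.31), which act in the removal of misfolded proteins from the endoplasmic reticulum, did not pass (adjusted p = 0.186 and 0.226).

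**Figure D4:**
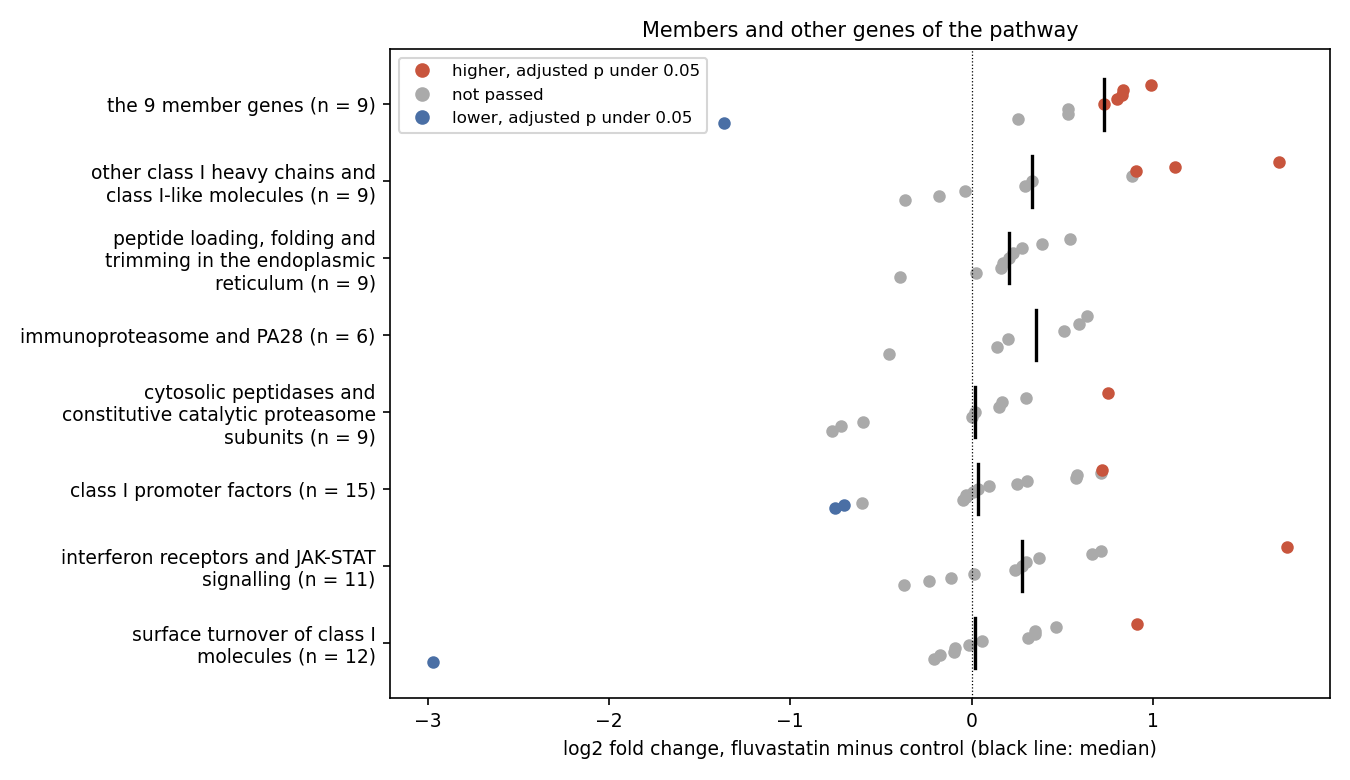
Log2 fold change (fluvastatin minus control, horizontal axis) of the 9 members and of the 71 measured genes of 7 further lists, 1 point a gene, with the median of each list as a black line. Red points rose, blue points fell at an adjusted p under 0.05 and grey points did not pass; the members' median lies at 0.73 and those of the other lists between 0.02 and 0.36.

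Of the 9 members, 7 lie in the MHC on chromosome 6, and B2M and NLRC5 are elsewhere. In the RefSeq gene order, TAP2, PSMB8, TAP1 and PSMB9 follow one another. By the brightest probe of each gene, their log2 fold changes in that order were -1.36, 0.20, 0.53 and 0.63. The dimmer PSMB9 probe gave 0.25. TAP2 thus stood apart from its neighbours on that side. HLA-DOB, a class II gene next to TAP2 on its other side, was singled out after its value was seen. Its raw intensities were 76.1 and 81.4 with fluvastatin, where it was detected on neither array, against 98.4 and 86.8 in controls, where it was detected on both. Its level with fluvastatin is therefore known only as near background, and no fold change is given. Between HLA-F and TAPBP, 89 protein-coding genes that are not members had a kept probe. Of these, 12 rose, 4 fell and 73 did not pass, with a median of 0.20. The shares over all genes were 10.5% and 9.65%. HLA-DOB is counted among those that fell, although its probe was kept through the control arrays alone.

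The genes whose 4 array values lay nearest to the members' median profile, by Euclidean distance after centring on the control mean, were DGLUCY, SAT2, DVL2, HIBADH and SLC25A51, at distances of 0.0285 to 0.0506 log2 units. Their log2 fold changes were 0.69 to 0.73, and 4 arrays give this likeness little weight.

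**Figure D5:**
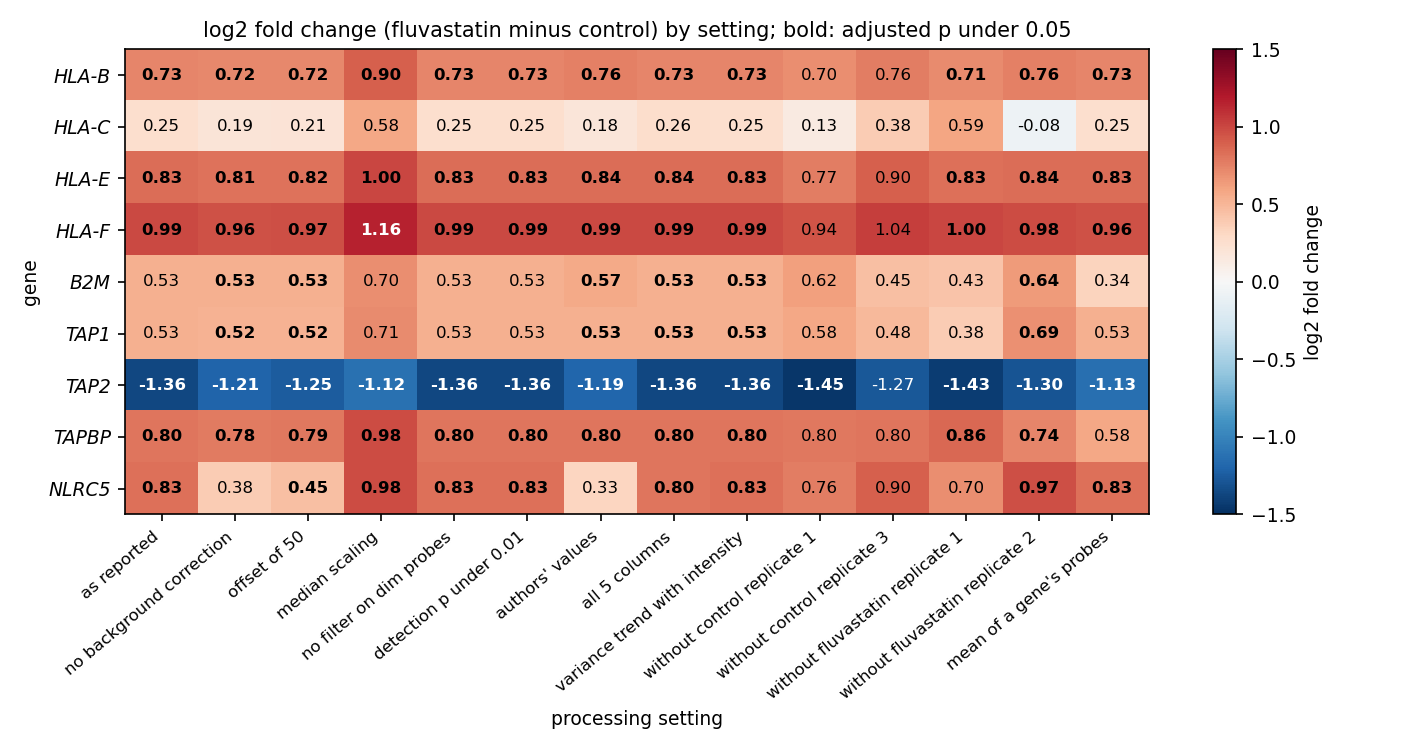
Log2 fold change (fluvastatin minus control) of each member gene, in rows, under each processing setting, in columns, with bold where the adjusted p was under 0.05. TAP2 was negative in every column, HLA-C turned to -0.08 without fluvastatin replicate 2, and HLA-B, HLA-E and HLA-F lost their call in the 2 columns that leave out a control.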

How the data were processed

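Total RNA of MDA-MB-231 cells was read on Illumina bead arrays. The deposited raw table gives 1 intensity per probe and sample, not background subtracted or normalized as far as the values show, and beside each a column of detection p-values, as deposited. The authors' second table holds log2 values with nearly equal distributions; the submitters' processing notes list R 3.1.0, and the steps taken are not given in the sources used here. Every per-sample column was mapped, 0 being left unused.

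Intensities of the 4 independent arrays went through limma's neqc function (limma 3.58.1, R 4.3.3; normexp background from the detection p-values, offset 16, quantile normalization, log2). Kept probes, 21986 in all, were compared by lmFit and eBayes, two-sided, with adjustment over all of them. The fit had 2 residual and 3.72 prior degrees of freedom. Only this fit was tested on simulated data, which were drawn as log2 values. Background correction, normalization, the probe filter and the choice of the brightest probe were not tested that way. An exact permutation test of 2 against 2 arrays cannot go below p = 0.333, so none was used. The number of arrays limits the precision. Each gene was represented by its brightest kept probe; symbols came from the platform annotation (30113 probes with 1 symbol; 0 changed against RefSeq). The members and lists were chosen with earlier results of these data known. All members were named, and of each list the genes that passed and, up to 4 in all, those with the smallest p; 5 nearest profiles were named as well. Groups were taken from sample titles, because all 5 samples carry the mock control's treatment text. Alternatives changed the background correction, offset, normalization, probe filter, variance model and probe summary, took the authors' values or all 5 columns, or left out each array. Motifs were searched in Python 3.11.15, with alignments by Biopython 1.88.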

Additional observations from a re-analysis of the deposited data

How the results depend on the processing

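Each of the 9 members was refitted under 13 other settings. HLA-C alone of the 9 turned its direction, to -0.0791 without fluvastatin replicate 2, in a range of -0.08 to 0.59 on leaving out 1 array. Leaving out 1 array gave 0 to 7 members that rose, 0 to 1 that fell, 0 to 10 member probes that passed and 490 to 6980 of all probes; the array left alone in its group is then assumed to vary like the others, and 1 residual degree of freedom remains. All 5 deposited columns gave 8927 probes, counting the mean of the other controls as a sample. The other settings gave 4 to 7 members that rose and 1 that fell. Median scaling in place of quantile normalization moved the median of all genes to 0.22 and the share of calls that were higher to 78.0%, against 52.0% with quantile normalization. Of 182 counts over the pathway lists, 129 stayed within 1.5 times and 53 did not; the cause was not tested. No paired analysis was possible because the groups share only replicate number 1 among independent arrays. Among the members, low signal limits NLRC5, HLA-C, the dimmer TAP2 probe and the dimmer TAPBP probes. In the lists, signal was also low for MR1 and CIITA in controls and for MARCHF4 with fluvastatin.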
